A study of Mus musculus with 6 samples.

Results

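The extracellular matrix and fibroblast genes described here are a list of 44 genes for collagens, matrix glycoproteins, proteoglycans, elastic fibre proteins, matrix proteases and their inhibitors, TGF-beta ligands and markers of fibroblasts and myofibroblasts. They were taken by gene name and not by a measured value, although earlier results of these data were known when the list was chosen. All 44 were found among the 46072 genes of the deposited tables. Of these, 31 had a mean of at least 1 FPKM over the libraries and are called tested members below, as were 8507 genes in all. FPKM counts the fragments sequenced from a gene, adjusted for the length of its transcripts and for the depth of the library.

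Left ventricles came from male mice aged 10 weeks in 3 groups of 2 mice: Sham, AngII 4 h and AngII 24 h, the last 2 given angiotensin II (AngII) from an osmotic minipump (1 mg/kg/min). The labels call the Sham mice untreated, while the methods of the study describe an infusion of saline. Lysates were incubated with an antibody to EZH2 or with normal IgG, and the RNA recovered with the antibody was sequenced (RIP-seq), 2 RIP products being mixed into each of the 6 libraries. All libraries carry the strain label C57BL/6 except the anti-EZH2 libraries of AngII 4 h, labelled C57BL/7, and of AngII 24 h, labelled C57BL/8. No genetic change is stated for any group. With 1 library for each group and antibody, a difference between 2 libraries has no replicate check, and it is described here by its size. Judged by the widths of the deposited FPKM intervals, a level of 1 FPKM stood for about 4.39, 5.41 and 3.90 fragments on each kilobase of transcript with IgG (Sham, 4 h, then 24 h) and for 5.82, 7.97 and 5.06 with anti-EZH2. Values below are scaled FPKM, divided by a factor for each library, and folds are differences of log2(scaled FPKM + 0.1), which understate the change of low genes.

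In the heart, fibroblasts make most of the interstitial matrix, a network of fibrillar collagens that carries force between cardiomyocytes. AngII acts through a G protein-coupled receptor, and over longer infusions it is known to raise TGF-beta signalling, to turn fibroblasts into contractile myofibroblasts and to cause fibrosis. EZH2 is the methyltransferase of Polycomb repressive complex 2, which silences genes and also binds RNA, many messenger RNAs among them. An IgG library holds RNA that sticks without a specific antibody, so neither kind of library measures total RNA. In such bulk tissue samples, fewer cells of a type and less RNA per cell cannot be told apart.

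The list was first set against markers of its cells. Among genes that mark fibroblasts, Pdgfra, the alpha receptor of platelet-derived growth factor, had a mean of 1.88 scaled FPKM over the libraries, and Tcf21, a transcription factor of resident cardiac fibroblasts, had 0.679. Of 8 fibroblast genes outside the list, 6 were tested, and the most abundant was Gsn (mean 56.4), which encodes the actin-severing protein gelsolin. Vim, a filament protein of mesenchymal cells, was the most abundant of the 44 genes (mean 30.2). Several of the 44 genes are also made by other cells, such as Col4a1 by endothelium and Acta2 and Tagln by smooth muscle, so the name of the list does not assign its RNA to fibroblasts. The summed level of all 44 genes was 304.5 in the Sham IgG library, against 6443 for 10 cardiomyocyte markers.

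After AngII, the levels of these genes lay mostly below those of Sham. In the IgG libraries, the median fold of the tested members was −0.61 at 4 h and −0.73 at 24 h, where the median over all tested genes was 0 at both times. In the anti-EZH2 libraries it was −0.65 at 4 h and −0.52 at 24 h, against −0.03 and −0.02 over all tested genes. Without scaling, these medians of the members were −0.38, −0.48, −0.23 and −0.58, against 0.19, 0.21, 0.35 and −0.08. The 4 h and 24 h comparisons of an antibody share their Sham library, and the libraries of the 2 antibodies come from the same groups of mice. In the table of the whole series, a second form in which the same libraries were deposited, 24 members were tested and the medians were −0.78, −0.43, −0.71 and −0.09 in the same order. The low anti-EZH2 median at 24 h was therefore not seen in that form. Col5a1, Col5a2, Col6a3, Mmp14, Tgfb1, Pdgfra and Tagln were under the filter in it, so folds quoted from it for them rest on low values. The summed scaled FPKM of 13 mitochondrial mRNAs was lowest in the Sham IgG library, with 22619, 32616 and 25352 with IgG and 29433, 29385 and 28562 with anti-EZH2.

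By a fold of more than 2, 9 of the 31 tested members (29.0%) were lower at 4 h in the IgG libraries, while 14.7% of all tested genes were. These were Col1a1, Col3a1, Col4a2, Col5a2, Col6a2, Fbn1, Lum, Postn and Vim, and Timp4 alone was higher, where 13.5% of all genes were. At 24 h in the IgG libraries 9 members were lower, Mmp14 among them with its AngII library listed at 0, against 14.6% of all genes, and 0 were higher, against 15.0%. In the anti-EZH2 libraries 6 members (19.4%) were lower at 4 h, beside 16.0% of all genes, and 0 were higher, beside 12.0%. At 24 h 6 members were lower there, near the 20.8% of all genes, and 2 (Eln and Pdgfra) were higher, beside 14.8%. The anti-EZH2 shares of lower members were thus close to those of all genes, and those of the IgG libraries were about 2 times as large. Without scaling, the 4 h split in the anti-EZH2 libraries was 2 higher and 4 lower, beside 21.1% and 10.1% of all genes, and 5 members were lower at 4 h in the IgG libraries, beside 11.2%.

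Direction was then counted in both antibodies. At 4 h, 20 of the 31 tested members were below Sham in both antibodies and 3 (Bgn, Tagln and Timp4) were above it, while 28.0% of all tested genes were below in both and 25.3% above. At 24 h, 23 members were below in both and 2 (Tagln and Timp4) above, against 27.7% and 25.4% of all genes. Without scaling, 14 members were below in both at 4 h and 18 at 24 h, against 15.6% and 22.3% of all genes. In the table of the whole series, 18 of 24 members were below in both at 4 h and 13 of 24 at 24 h. The share of all genes in that form is not given, so these counts have no background beside them. Past 2-fold in both antibodies, 3 members were lower at 4 h (Col3a1, Col5a2 and Col6a2), where 4.30% of all genes were, and 2 at 24 h (Col1a1 and Col4a2), where 4.54% were. Of these 5, Col5a2 at 4 h and Col1a1 and Col4a2 at 24 h were not past 2-fold lower in both in the table of the whole series.

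Many of these differences were within the intervals deposited with the values. Past 2-fold and with intervals of the 2 libraries apart were 8 tested members at 4 h in the IgG libraries, of which 7 were lower, where 3.63% of all genes met the same rule. The number was 4 at 24 h (2.74% of all genes), all lower. In the anti-EZH2 libraries it was 4 at 4 h (4.58%) and 4 at 24 h (4.96%), again all lower. The intervals cover counting and the assignment of fragments to isoforms in 1 library, and not the spread between mice.

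**Figure D1:**
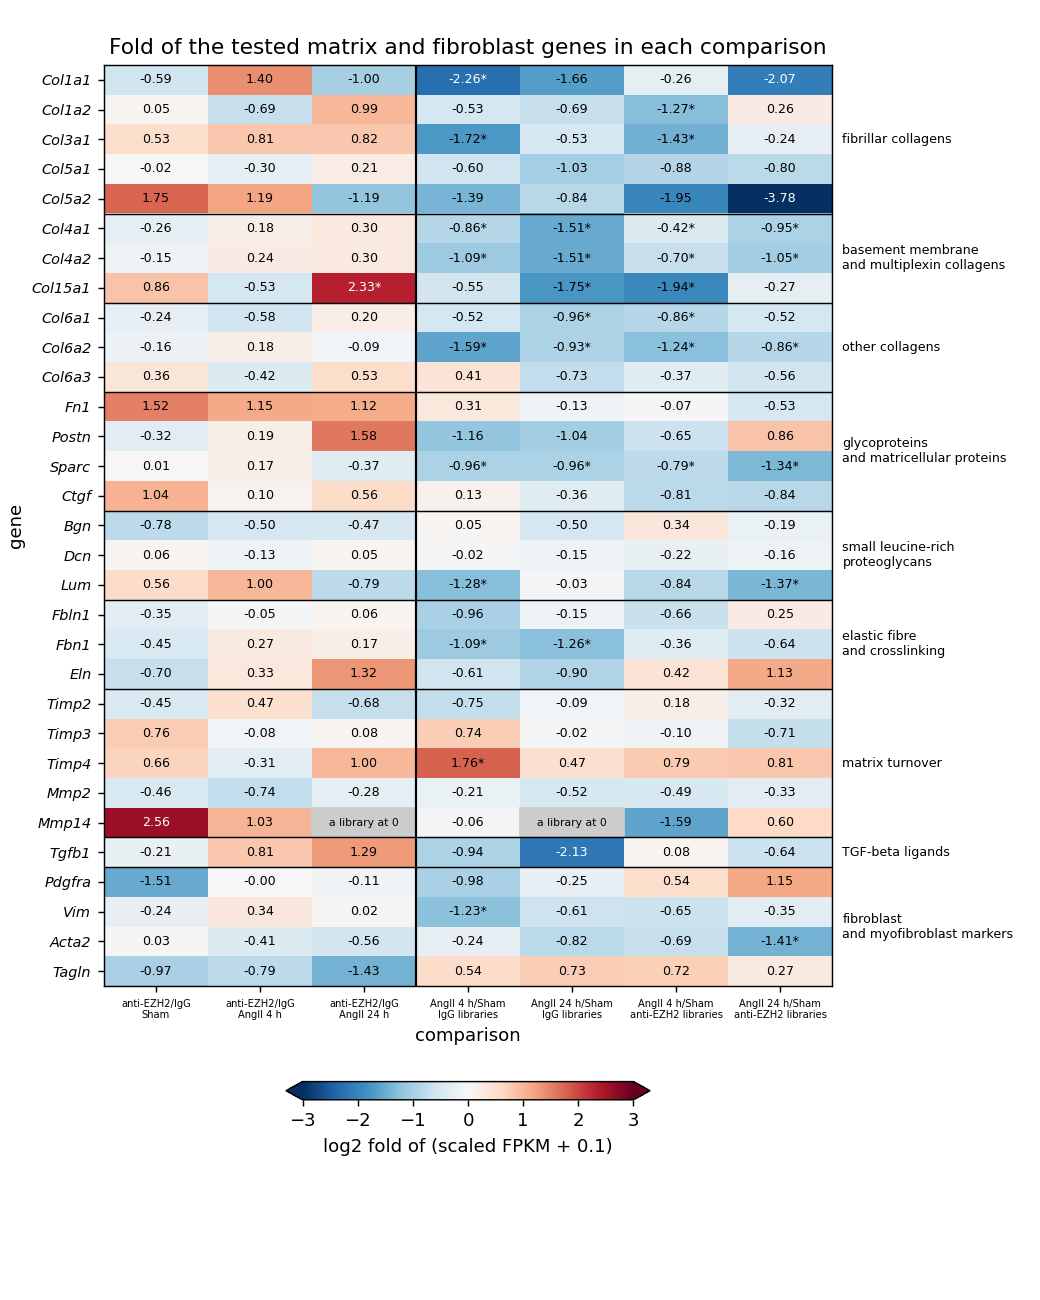
Each cell gives the log2 fold of (scaled FPKM + 0.1) of 1 of the 31 tested members, grouped by role, in 1 of the 7 comparisons, with blue for lower and red for higher values, and colours end at a log2 fold of 3 in either direction. A star marks intervals that are apart, and grey cells are comparisons with a library at 0. The 4 columns of AngII against Sham are mostly blue, with medians between −0.73 and −0.52, and the 3 columns of anti-EZH2 against IgG are mixed.

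The fibrillar collagens, whose triple helices form the load-bearing fibres, were among the roles furthest below Sham. Col1a1, the alpha1 chain of collagen I, had 15.2 scaled FPKM in Sham, 3.11 at 4 h of AngII and 4.76 at 24 h with IgG, and with anti-EZH2 it had 10.1, 8.38 and 2.33 in that order. Both Sham libraries had the highest value of their antibody, and the folds were −2.26 and −1.66 for IgG and −0.26 and −2.07 for anti-EZH2. Of these, the 4 h IgG interval alone (2.26 to 6.30) was apart from its Sham interval (7.76 to 21.8). Both IgG folds were under 2-fold in the table of the whole series (−0.87 and −0.06), where the anti-EZH2 folds were −0.89 and −1.48.

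Col1a2 encodes the partner chain of collagen I and has its own gene on another chromosome. Its levels were 6.40, 4.41 and 3.94 with IgG and 6.62, 2.69 and 7.93 with anti-EZH2. The highest scaled value was thus the anti-EZH2 library at 24 h, the same library in which Col1a1 was lowest. Without scaling, Col1a2 was highest in the Sham IgG library, at 6.39 against 6.20 in the anti-EZH2 library at 24 h. The ratio of Col1a1 to Col1a2 ran from 0.294 in the anti-EZH2 library at 24 h to 3.11 in that at 4 h. The annotation lists 4 transcripts for Col1a1 and 8 for Col1a2, and what part the assignment to isoforms has in this ratio was not tested.

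Col3a1 encodes collagen III, the finer fibres that mix with collagen I, and it was the most abundant collagen of the list. It measured 20.7, 6.21 and 14.3 with IgG and 29.8, 11.0 and 25.3 with anti-EZH2. In both antibodies the 4 h library was the lowest and its interval lay apart from that of Sham, with folds of −1.72 and −1.43. At 24 h the folds were −0.53 and −0.24 with overlapping intervals, so the low value was seen at 4 h.

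Collagen V is a minor fibrillar collagen that sets the width of collagen I fibres. Its chain gene Col5a2 had 2.52, 0.900 and 1.37 with IgG and 8.70, 2.18 and 0.541 with anti-EZH2. Every AngII library was below the Sham library of its antibody, with the largest fold (−3.78) at 24 h in the anti-EZH2 libraries, but all intervals overlapped, that of the Sham anti-EZH2 library reaching from 1.71 to 15.6, and the 4 h IgG fold of −1.39 was −0.20 in the table of the whole series. Col5a1, its other chain, lay between 1.03 and 2.20 in the 6 libraries. Over the 5 fibrillar collagens, the medians of the folds were −1.39 and −0.84 with IgG and −1.27 and −0.80 with anti-EZH2, and all 5 were below Sham in each comparison but the last, where 4 were. Without scaling, Col1a1 was above Sham at 4 h in the anti-EZH2 libraries, by 0.15, and the table of the whole series had Col3a1 above Sham in the last comparison, by 0.53.

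Type IV collagen forms the sheet-like network of basement membranes around cardiomyocytes and capillaries, and its 2 main chains are Col4a1 and Col4a2. Col4a1 had 16.2, 8.90 and 5.63 with IgG (Sham, 4 h, then 24 h) and 13.5, 10.1 and 6.96 with anti-EZH2. Col4a2 had 14.4, 6.70 and 4.98, and 12.9, 7.94 and 6.17, in the same order. For both genes and both antibodies the levels went down from Sham to 4 h to 24 h, and each AngII interval was apart from that of its Sham library. Without scaling, the 4 h anti-EZH2 fold of Col4a1 was near 0.

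The folds of Col4a1 were −0.86 and −1.51 with IgG and −0.42 and −0.95 with anti-EZH2. Those of Col4a2 were −1.09 and −1.51, then −0.70 and −1.05, so the pair moved alike, and the ratio of Col4a1 to Col4a2 stayed between 1.05 and 1.33 in the 6 libraries. The table of the whole series differed at 24 h, with folds of −0.39 and 0.03 for Col4a1 and of −0.06 and 0.58 for Col4a2 (IgG, then anti-EZH2), so that both genes were higher at 24 h than at 4 h in it. The 24 h values of this pair therefore depend on which deposited form is read, while the 4 h folds of both genes were below 0 in both forms.

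These 2 genes lie head to head on chromosome 8 (mm10), Col4a1 on the minus strand at chr8:11198423-11312826 and Col4a2 on the plus strand at chr8:11312805-11449287. Their annotated 5′ ends overlap by 22 bases. The overlap is printed because the pair moved together, from the RefSeq promoter of Col4a2 (GRCm38.p6), plus strand, chr8:11312801-11312830, with the bases that belong to both genes in capitals.
Col4a1 and Col4a2 shared 5′ end: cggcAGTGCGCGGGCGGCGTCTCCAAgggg
Of these 30 bases 80% are G or C, and the letters GGGCGG occur in the capitals. Promoter windows of 300 bases were matched for 30 of the 44 genes, and GGGCGG, sought on both strands, was in 16 of them (53.3%), compared with 38.2% of the 27025 genes with such a window. CCAAT was in 10 (33.3%, against 41.1%) and TATAAA in 6 (20%, against 15.7%). The windows of Col4a1 and Col4a2, which share bases, both held GGGCGG and CCAAT and not TATAAA. Such matches describe letters and not binding.

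Col15a1 encodes a multiplexin, a collagen with interrupted helices that sits outside basement membranes and links them to the fibres. It had 15.7, 10.7 and 4.62 with IgG and 28.6, 7.37 and 23.7 with anti-EZH2. The lowest IgG value was at 24 h (fold −1.75) and the lowest anti-EZH2 value at 4 h (fold −1.94), each with its interval apart from Sham. In the second deposited form the IgG folds were −1.12 and −1.09, so this difference in time was not seen there. At 24 h the anti-EZH2 level exceeded the IgG level by a log2 fold of 2.33 with intervals apart (9.11 to 24.8, and 2.23 to 7.01). The table of the whole series gave 2.37 for that fold, but it put the anti-EZH2 library at 24 h above Sham, by 1.15 in place of −0.27.

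Collagen VI forms beaded filaments that anchor cells to the interstitial matrix. Col6a2, one of its chains, had 8.59, 2.79 and 4.45 with IgG and 7.65, 3.17 and 4.18 with anti-EZH2. The 4 AngII values were all below both Sham values, and their intervals were apart from that of the Sham library of their antibody. The folds were −1.59 and −0.93, then −1.24 and −0.86, and they were lowest at 4 h in both antibodies, but without scaling the anti-EZH2 folds were −0.83 and −0.92, lowest at 24 h. The table of the whole series gave 4 h folds of −1.51 and −1.31, but 24 h folds of 0.34 and 0.31.

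The other chains were Col6a1, with 2.52 to 5.52 over the 6 libraries, and Col6a3, with 0.980 to 2.29. Col6a1 was below Sham in both antibodies at both times, by folds between −0.96 and −0.52, but the table of the whole series had it above Sham at 24 h, by 0.16 and 0.56. Col6a3 had a fold of 0.41 at 4 h in the IgG libraries (−0.31 in that table) and was below Sham in the remaining 3, though without scaling its 4 h anti-EZH2 fold was 0.03. Col8a1, Col12a1 and Col14a1, a short-chain collagen and 2 collagens bound to fibres, were not tested, and none exceeded 1.09 in any library.

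Sparc, a collagen-binding matricellular protein, had 39.5, 20.3 and 20.3 with IgG and 39.7, 22.8 and 15.6 with anti-EZH2. Both Sham libraries were near 40 and no AngII library exceeded 22.8. All 4 intervals were apart from Sham, with folds of −0.96, −0.96, −0.79 and −1.34. In the table of the whole series the folds were −1.18, −1.14, −1.20 and −1.50, so Sparc was below Sham at both times in either form.

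Fibronectin, from Fn1, is a glycoprotein on which cells assemble collagen fibres. It had 2.25, 2.81 and 2.06 with IgG and 6.66, 6.35 and 4.58 with anti-EZH2. The anti-EZH2 values were higher than all IgG values, and neither antibody showed a fold over 0.53 in size between AngII and Sham. With 17 annotated transcripts, Fn1 had the most of the list, and its intervals were wide (3.34 to 9.96 in the Sham anti-EZH2 library).

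Postn encodes periostin, a matricellular protein that marks activated cardiac fibroblasts. Its levels were 3.56, 1.54 and 1.68 with IgG and 2.82, 1.76 and 5.22 with anti-EZH2, and all intervals overlapped. The IgG folds were −1.16 and −1.04, and the anti-EZH2 folds were −0.65 and 0.86, so the 24 h values lay on opposite sides of Sham. In the second deposited form both were below it, by −1.60 and −0.44. Postn was thus not above Sham in both antibodies at either time.

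Ctgf, also named Ccn2, is a secreted protein induced by TGF-beta and by stretch. It had 3.58, 3.94 and 2.78 with IgG and 7.49, 4.22 and 4.14 with anti-EZH2. Its folds were 0.13 and −0.36, then −0.81 and −0.84, with overlapping intervals. The remaining glycoproteins, tenascin C (Tnc), the thrombospondins Thbs1 and Thbs4, osteopontin (Spp1) and Cilp, were not tested, and Tnc, Thbs4 and Spp1 were each listed at 0 in at least 1 library.

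Of the small leucine-rich proteoglycans, which coat collagen fibres, Dcn (decorin) was high and steady. It had 25.9, 25.4 and 23.3 with IgG and 27.0, 23.2 and 24.1 with anti-EZH2, with folds between −0.22 and −0.02. Bgn (biglycan) had 28.6, 29.7 and 20.2 and then 16.6, 21.0 and 14.5, and its anti-EZH2 level was the lower one in each group. Lum (lumican) lies on the same strand of chromosome 10 as Dcn. It had 2.84, 1.11 and 2.79, then 4.23, 2.32 and 1.57, and its folds past 2 were −1.28 at 4 h in the IgG libraries and −1.37 at 24 h in the anti-EZH2 libraries. The second deposited form differed at 24 h, with folds of −1.24 and −1.14 for Dcn and of −1.47 and −2.60 for Lum, so the steadiness of Dcn at 24 h holds for the separate tables alone.

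Among genes of elastic fibres, Fbn1 (fibrillin-1, the microfibril scaffold) had folds of −1.09 and −1.26 in the IgG libraries with intervals apart from Sham, and of −0.36 (0.04 without scaling) and −0.64 in the anti-EZH2 libraries. Eln, the elastin gene, had folds of −0.61 and −0.90 for IgG but 0.42 and 1.13 for anti-EZH2. Fbln1 (fibulin-1) lay between 2.48 and 5.09 in the 6 libraries, and the crosslinking enzyme gene Lox was not tested (mean 0.284). The members of this role thus shared a direction in the IgG libraries, except that Fbln1 was at 0.11 at 24 h without scaling and at 0.14 in the table of the whole series, and not in the anti-EZH2 libraries.

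The 5 tested genes of matrix turnover had medians of −0.06 and −0.09 with IgG and −0.10 and −0.32 with anti-EZH2. They lay on both sides of Sham in each comparison, and a difference from the collagens was not tested. Timp4, an inhibitor of metalloproteinases with high expression in the heart, was above Sham throughout, with 1.53, 5.42 and 2.15 with IgG and 2.47, 4.34 and 4.41 with anti-EZH2. Its 4 h IgG fold of 1.76 had intervals apart, whereas the other 3, between 0.47 and 0.81, did not. Read from the table of the whole series, the folds were 1.63 and 0.59 at 4 h but −0.46 and −0.41 at 24 h.

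The other inhibitors were Timp2, with 3.11 to 5.37 over the libraries, and Timp3, with 4.87 to 8.46, neither with a fold past 2 in the scaled separate tables, and Timp1, which was not tested and was listed at 0 in 3 libraries. In the table of the whole series, Timp3 had a 24 h anti-EZH2 fold of −1.25 against Sham. Without scaling, Timp2 had a fold of −1.29 for anti-EZH2 against IgG at 24 h. Mmp2, the gelatinase that cuts basement membrane and denatured collagen, lay between 1.86 and 3.67 and had folds from −0.52 to −0.21, the last becoming 0.03 without scaling. Mmp14, the membrane-bound protease that activates it, had 0.420, 0.400 and 0 with IgG and 2.97, 0.917 and 4.54 with anti-EZH2. Its intervals were wide, reaching from 0 to 11.5 in the anti-EZH2 library at 24 h, and no fold is given against the library listed at 0.

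TGF-beta is the main signal for matrix production, and its ligands were low. Tgfb1 had 2.28, 1.14 and 0.441 with IgG and 1.95, 2.07 and 1.22 with anti-EZH2. The IgG levels went down with time (folds −0.94 and −2.13) and the anti-EZH2 folds were 0.08 and −0.64, all with overlapping intervals. In the table of the whole series, where Tgfb1 was under the filter, the anti-EZH2 folds were 0.75 and 0.03. Tgfb2 and Tgfb3 had means of 0.668 and 0.669 and were not tested.

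The markers of fibroblasts and myofibroblasts did not share a direction. Pdgfra had 2.88, 1.41 and 2.40 with IgG and 0.943, 1.41 and 2.22 with anti-EZH2, so that it was below Sham after AngII for IgG and above it for anti-EZH2, although the 24 h IgG fold of −0.25 was 0.01 without scaling and 0.16 in the table of the whole series. Tcf21, although under the filter, had 0.453, 0.628 and 0.853, and then 0.419, 0.672 and 1.05. These levels were higher at 24 h than in Sham in both antibodies, with overlapping intervals and an upper bound of 1.75 in the highest library.

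Vim had 43.9, 18.7 and 28.7 with IgG and 37.2, 23.7 and 29.2 with anti-EZH2. The 4 h libraries were lowest in both, with a fold of −1.23 and intervals apart for IgG and of −0.65 for anti-EZH2, where without scaling the 24 h library was the lowest. The 4 h IgG fold was −0.98 without scaling and −0.99 in the table of the whole series, both under 2-fold, and that table had the 24 h anti-EZH2 fold at 0.07. Acta2, smooth muscle actin and a mark of myofibroblasts, had 5.42, 4.57 and 3.03, and then 5.56, 3.41 and 2.03. Its levels went down with time in both antibodies (without scaling the first IgG fold was near 0), the 24 h anti-EZH2 fold of −1.41 having intervals apart. Tagln (transgelin), another smooth muscle protein, was between 0.464 and 1.73 and above Sham in both antibodies at both times, by folds of 0.27 to 0.73. All these Tagln intervals overlapped those of Sham. By scaled values, Acta2 and Tagln, both contractile genes, thus lay on opposite sides of Sham, with intervals apart for Acta2 in the 24 h anti-EZH2 comparison alone.

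**Figure D2:**
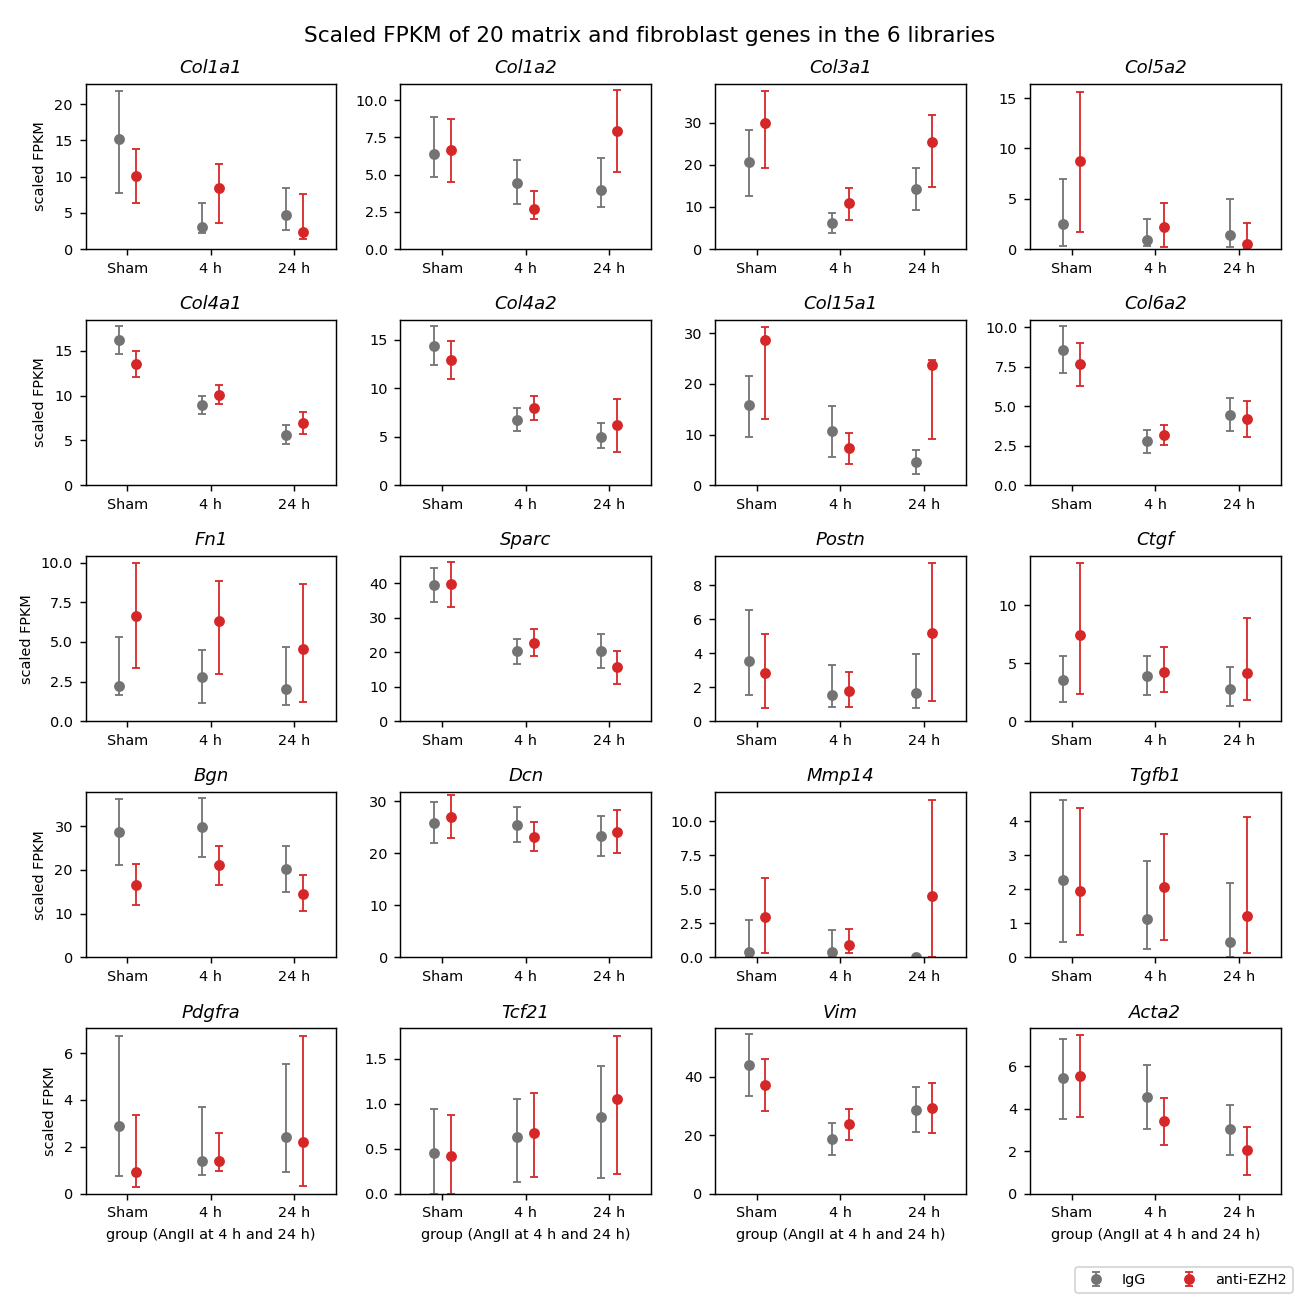
Points are scaled FPKM on a linear axis for 20 of the 44 genes in the IgG (grey) and anti-EZH2 (red) libraries of each group, 1 library a point, and bars are the deposited intervals of that library. Sham points lie highest for Col4a1, Col4a2, Col6a2 and Sparc in both antibodies, and Fn1 is higher in anti-EZH2 than in IgG in each group.

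Whether transcripts of the matrix genes were recovered more with anti-EZH2 than with IgG was asked in each group. In Sham, 4 tested members (Col5a2, Ctgf, Fn1 and Mmp14) were more than 2-fold higher in anti-EZH2, 12.9% against 17.6% of all tested genes, and 1 (Pdgfra) was lower, against 12.7%. At AngII 4 h, 4 (Col1a1, Col5a2, Fn1 and Mmp14) were higher, against 13.6%, and 0 were lower, against 9.66%. At AngII 24 h, 7 (22.6%) were higher (Col15a1, Eln, Fn1, Postn, Tgfb1, Timp4 and, against a library listed at 0, Mmp14), against 16.0%, and 2 (Col5a2 and Tagln) were lower, against 17.1%. The shares of members higher with anti-EZH2 were thus near those of all genes, and the median folds of all tested members were −0.15, 0.17 and 0.17 (−0.44, 0.06 and −0.41 without scaling). Mmp14 passed the filter through its anti-EZH2 libraries alone, so its place in these counts follows in part from the filter. The shares of all genes can hold such genes too.

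Without scaling, the split at 24 h was 2 higher and 7 lower, beside 8.50% and 32.7% of all genes, and in Sham it was 3 and 3, beside 13.7% and 18.6%. With folds centred for GC content, the 24 h split was 6 and 3, without a share of all genes to set beside it. Past 2-fold with intervals apart, there were 0 members in Sham (3.29% of all genes), 0 at 4 h (2.72%) and 1 at 24 h (3.26%), namely Col15a1.

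Fn1 was more than 2-fold higher in anti-EZH2 in all 3 groups, a rule met by 1.92% of all genes. Its folds were 1.52, 1.15 and 1.12 in Sham, 4 h and 24 h, with overlapping intervals. The 24 h fold fell to 0.51 without scaling, 0.87 with a pseudocount of 1 and 0.96 after centring for GC content, and the 4 h fold to 0.95 with that pseudocount, all under 2-fold. Read from the table of the whole series, they were 1.38, 1.75 and 1.51. Those of Mmp14 were 2.56 in Sham and 1.03 at 4 h, the latter 0.94 without scaling and 0.45 with a pseudocount of 1, and its IgG library at 24 h was listed at 0. As no IgG library reached 1 FPKM for Mmp14, it passed the filter through its anti-EZH2 libraries.

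Taking the 3 groups as replicates of the antibody contrast, limma with the group as a block called 0 members higher and 0 lower at a Benjamini-Hochberg adjusted p of 0.05. Over all 8507 genes it called 1 higher (0.0118%), the predicted gene Gm17428, and 0 lower (0%). Gm17428 was listed at 0 in all 3 IgG libraries, so it too passed the filter through its anti-EZH2 libraries. The gene was not called with a pseudocount of 1, without the filter or in the table of the whole series. With an unadjusted p under 0.05 there were 4 members (Fn1, Col3a1, Bgn and Mmp14, the last dependent on the filter as just described) and 491 genes in all (5.77%). Fn1 had a mean log2 difference of 1.26 (SE 0.26), was higher in 3 of 3 groups and had an adjusted p of 0.672 in limma, the lowest of the members. Col3a1 was also higher in 3 of 3 groups, by 0.72 (SE 0.20), and Bgn was lower in 3 of 3, by −0.59 (SE 0.19), with limma adjusted p of 0.814 and 0.820. Col3a1 was instead lower in each group in the table of the whole series, by −1.23, −0.25 and −0.56. A preference of the members for either antibody was therefore not detectable with 3 pairs of libraries.

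Other genes of the matrix and its signals, outside the 44, were set beside them. Of 33 other matrix genes, 20 were tested, with medians of −0.62 and −0.14 in the IgG libraries at 4 h and 24 h and of −0.51 and −0.38 in the anti-EZH2 libraries. Past 2-fold lower were 3, 4, 2 and 6 of them, and 0, 0, 0 and 2 were higher, where the shares of all genes given above were 14.7%, 14.6%, 16.0% and 20.8% lower and 13.5%, 15.0%, 12.0% and 14.8% higher. Lama5, a laminin chain of vascular basement membrane, had 6.06, 1.73 and 6.75 with IgG and 9.00, 2.48 and 3.20 with anti-EZH2. Sparcl1, a relative of Sparc, had 24.3, 13.0 and 11.5, then 19.7, 10.3 and 10.1, with every AngII value below both Sham values. Col16a1, a collagen associated with fibres, was at most 1.93 and was listed at 0 in 1 library.

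Of 25 genes that process or degrade matrix, 11 were tested, with medians of −0.76, −0.82, −0.58 and −0.51. More than 2-fold lower were 4, 3, 2 and 4 of them, beside 14.7%, 14.6%, 16.0% and 20.8% of all genes. More than 2-fold higher were 1, 0, 1 and 1, beside 13.5%, 15.0%, 12.0% and 14.8%. Serpinh1, the chaperone of procollagen in the endoplasmic reticulum, had 21.0, 6.07 and 8.34 with IgG and 17.3, 7.44 and 6.22 with anti-EZH2, all folds being past 2 (−1.77, −1.32, −1.21 and −1.46). Pcolce, which enhances the trimming of procollagen, had 8.55, 6.21 and 3.69, then 9.66, 3.41 and 1.90. Both genes act on collagen itself and were lower than Sham in every AngII library of the separate tables. Plod3, a lysyl hydroxylase, was below 1.59 in all libraries but the anti-EZH2 library at 24 h, where it was 6.04.

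The TGF-beta pathway had 13 of 20 genes tested, with medians of −0.26, −0.25, −0.33 and 0.11, and in the IgG libraries 0 were past 2-fold in either direction. In the anti-EZH2 libraries 1 was higher and 3 lower at 4 h, and 4 were higher and 3 lower at 24 h, beside 12.0% and 16.0%, then 14.8% and 20.8%, of all genes. Smad3, which carries the signal to the nucleus, had 1.59, 1.82 and 1.91 with IgG and 0.808, 0.187 and 8.22 with anti-EZH2. Acvrl1, a type I receptor of endothelium, had 2.05, 2.58 and 1.09, then 5.77, 2.03 and 2.38, and Tgfbi, a target of TGF-beta, did not exceed 1.99. Of 14 matrix receptors 9 were tested, with medians of −0.80, −0.66, 0.17 and −0.32. Of these 9, 3, 4, 0 and 2 were more than 2-fold lower, beside 14.7%, 14.6%, 16.0% and 20.8% of all genes. More than 2-fold higher were 0, 1, 1 and 0, beside 13.5%, 15.0%, 12.0% and 14.8%. Itgb5, an integrin subunit, had 16.6, 5.61 and 2.64 with IgG and 9.21, 15.3 and 7.82 with anti-EZH2. The collagen receptor Ddr2 had 3.30, 1.08 and 1.06, then 1.69, 1.49 and 3.06, and Ddr1 did not exceed 3.20.

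Markers of other cells were measured in the same libraries, since the makeup of the tissue or lysate could differ between them. The 10 cardiomyocyte markers were all tested and led by Myl2 (mean 2884), and they summed to 6443, 7348 and 6502 with IgG and 6110, 7110 and 6692 with anti-EZH2. Their median folds were 0.18, 0.25, 0.22 and 0.24, so by the median they lay slightly above Sham where the matrix genes lay below. Below Sham were 1, 2, 1 and 2 of these 10, among them Actc1 at 24 h, with folds of −0.57 (IgG) and −0.60 (anti-EZH2). The 10 endothelial markers, led by Fabp4 (mean 58.1), summed to 125.0, 94.0 and 86.9, and then 115.3, 94.3 and 98.3, with medians of −0.70, −0.49, 0.06 and −0.36. Of the 10, 9, 8, 4 and 6 were below Sham in the same order.

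Of 10 macrophage and leukocyte markers, 5 were tested, led by Lyz2 (mean 14.1). They summed to 44.0, 26.2 and 28.6 with IgG and 46.2, 23.1 and 28.2 with anti-EZH2, with medians of −0.84, −0.38, −0.87 and −0.81, and Cd68 was listed at 0 in 1 library. The 8 markers of smooth muscle and pericytes, led by Rgs5 (mean 12.8), summed to between 22.4 and 27.6, with 4 tested, medians of −0.23, −0.30, −0.29 and −0.18, and Cnn1 listed at 0 in at least 1 library. Fibroblast genes outside the list summed to 79.0, 64.5 and 79.8, then 82.8, 73.1 and 96.0, with medians of −0.22, 0.13, −0.15 and 0.45 and Lamc3 listed at 0 in at least 1 library. Gsn made up most of these sums, with 54.2, 42.7 and 56.2, then 58.5, 55.1 and 71.8.

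Epicardial (5) and adipocyte (5) markers had 0 tested genes. Their sums did not exceed 1.69 and 0.920, their most abundant genes were Wt1 and Adipoq, and Upk1b, Plin1 and Lep were listed at 0 in all libraries. The part of the endothelial, leukocyte and cardiomyocyte levels in the lower matrix levels was not tested. Base composition moved little with the folds, since across 6877 protein-coding genes, which are not independent, Spearman's rho of fold and GC content was between −0.10 and 0.01 for the 4 comparisons of AngII with Sham. After folds were centred within 20 bins of GC content, an alternative chosen after seeing the data, the medians of the members were −0.53 and −0.65 with IgG and −0.67 and −0.62 with anti-EZH2.

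The 13 members that were not tested had means of at most 0.735 and single values of at most 1.83. They were Col8a1, Col12a1, Col14a1, Tnc, Thbs1, Thbs4, Lox, Timp1, Tgfb2, Tgfb3, Spp1, Cilp and Tcf21. Several of them (Tnc, Timp1 and Spp1) are known as genes induced in injured or remodelling hearts, and none of these 3 was above 0.726 in any AngII library, while Timp1 had 1.83 in the Sham IgG library, with an interval from 0 to 4.01.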

How the data were processed

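RNA recovered with anti-EZH2 or IgG from left ventricles of 3 groups was measured in 6 libraries, 1 for each group and antibody, grouped by their labels. The authors prepared stranded libraries, mapped reads with TopHat2 to mm10 and deposited FPKM in a table for each library, with intervals, and in a table of the whole series. The program behind the FPKM and its annotation are not given in the sources used here, nor whether strand was used. Tables were joined on gene identifiers (60 repeated identifiers summed), and 538 genes without an OK status and 245 unnamed entries of the series table were left out.

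FPKM was divided by the median ratio of its library to the geometric mean over 4846 genes above 1 FPKM in all 6 libraries, the factors lying between 0.782 and 1.20. Folds used log2(scaled FPKM + 0.1), tested genes had a mean FPKM of at least 1, and a fold above 2 was counted. Depth was estimated from interval widths of 172 to 303 genes with 1 transcript a library. Anti-EZH2 was compared with IgG over the 3 groups with limma 3.58.1 (R 4.3.3), with the group as a block and Benjamini-Hochberg adjustment over all tested genes. Other steps used Python 3.11.15, numpy 2.4.6, pandas 2.3.3 and matplotlib 3.10.9, and both procedures were tested on simulated data. Transcript lengths, GC content and strands came from GENCODE M21.

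Alternatives were no scaling, a pseudocount of 1, no filter, the series table and, for limma, no block and leaving out each group, with GC-centred folds and all settings of the counts in both antibodies chosen after seeing the data. Every member was accounted for, and values in all 6 libraries were given for members past 2-fold in both antibodies at a time point or in 2 groups for anti-EZH2 against IgG, the 6 most abundant, and Col1a1, Postn, Ctgf, Tgfb1, Pdgfra, Tcf21 and Acta2. Values of Col1a2, Col4a1, Lum and Timp4 were added after they were seen. Of each pathway list outside the members, up to 3 genes with the largest mean absolute fold against Sham were named, and of each list of cell markers the most abundant and some listed at 0. Of the planned lists of cell markers, 1 is not reported. The members and lists were chosen with earlier results of these data known.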

Additional observations from a re-analysis of the deposited data

Results flagged for a closer look

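Col5a2 was more than 2-fold higher with anti-EZH2 than with IgG in Sham (log2 fold 1.75) and at 4 h of AngII (1.19), but lower at 24 h (−1.19). The fold at 24 h thus lay 2.94 below that of Sham and 2.38 below that of 4 h on the log2 scale. It drew attention because the groups moved in opposite directions, each past 2-fold. Each group had 1 library per antibody, all intervals of Col5a2 overlapped in these comparisons, and the difference between groups was not tested. With a pseudocount of 1 the folds at 4 h and 24 h were 0.74 and −0.62, both under 2-fold. In the table of the whole series those of Sham, 4 h and 24 h were 1.44, −0.60 and 0.05, the first alone being past 2-fold. Col5a2 was under the filter in that form.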

How the results depend on the processing

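Counts of members past 2-fold moved by over 1.5 times in these cases. The cause was not tested, but 44 members in place of 31 entered without the filter and 24 in the series table. Shares of all genes are given above for the main settings and without scaling, so the remaining counts lack a background. For anti-EZH2 against IgG in Sham (4 higher, 1 lower), 1 was higher in the series table, and 3, 0 and 3 were lower without scaling, with a pseudocount of 1 and without the filter. At 4 h (4 and 0), 1, 7 and 1 were higher with a pseudocount of 1, without the filter and in the series table, and 1 was lower without the filter. At 24 h (7 and 2), 2, 3 and 3 were higher without scaling, with a pseudocount of 1 and in the series table, and 7, 0, 5 and 1 were lower without scaling, with a pseudocount of 1, without the filter and in the series table. For AngII against Sham in the IgG libraries, 5 and 4 in place of 9 were lower at 4 h without scaling and with a pseudocount of 1, and 5 in place of 9 at 24 h with a pseudocount of 1. In the anti-EZH2 libraries, 2 and 2 in place of 0 were higher at 4 h without scaling and without the filter, and 0 and 4 in place of 2 at 24 h with a pseudocount of 1 and without the filter. Members below Sham in both antibodies at 24 h numbered 13 of 24 in the series table, against 23 of 31. The fold of Col4a2 at 24 h with anti-EZH2 reversed to 0.58 there.

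The 51 single folds past 2-fold were recomputed under the alternatives other than the filter, which cannot change them. The series table was used for 34 of them, those of members tested in it. Of the 187 values obtained, 133 were past 2-fold in the same direction, 53 were not and 1 reversed. GC-centred folds kept all 16 counts within 1.5 times. In limma, 0 members were called under any alternative, so the fit without the group block changed no member call, the lowest adjusted p of a member lay between 0.469 (no block) and 0.884, and 1 to 4 members had an unadjusted p under 0.05. Among all 8507 genes, 4 were called without the block. Leaving out the libraries of each group gave 0 calls among all genes, so those fits cannot show whether the member result is stable. No scaling shifted the median fold of all genes by −0.23, −0.08 and −0.58 for the antibody comparisons, by 0.19 and 0.21 for AngII against Sham with IgG and by 0.38 and −0.06 with anti-EZH2.

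With 1 library per group and antibody, mixed from 2 products, differences between mice cannot be told apart from those between treatments, and low genes rest on few fragments.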
